A study of Ovis aries with 8 samples.

Results

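Hepatocyte growth factor (HGF) and its receptor MET were followed in fetal sheep cultures labelled as endothelial cells. So were the fibroblast growth factor (FGF) ligands FGF1, FGF2, FGF5 and FGF7 and the receptors FGFR1 to FGFR4. These 10 genes were picked by name, with earlier results of these data known. All 10 had a row among the 15380 rows of the deposited table. For 9 the row carries the gene symbol, and the row of MET is named C-MET, which the RefSeq gene table of sheep lists as a synonym of MET.

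The cultures were labelled as pulmonary artery endothelial cells and came from near-term fetuses. Such cells line the vessels that carry blood from the heart to the lungs. Several endothelial markers were low in IUGR replicates 2 and 4, as given below. There were 4 cultures of a model of intrauterine growth restriction (IUGR), labelled IUGR Hyperthermic, and 4 control cultures, labelled Control Normothermic. Each culture has its own animal identifier in its title and was measured on 1 array. The comparison asks which transcripts differ between cultures of growth-restricted and control fetuses, whose endothelial marker levels are given below. The culture medium was DMEM containing 10% serum for every culture. IUGR cultures were at passage 3 or 4 and control cultures at passage 5 or 6, so growth restriction, the hyperthermic condition and passage cannot be told apart. No genotype or strain is given, and replicate numbers only name the cultures.

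HGF is a secreted factor made mainly by mesenchymal cells. It acts on MET, a receptor tyrosine kinase of epithelial and endothelial cells, and drives motility and growth. FGF ligands bind receptor tyrosine kinases together with heparan sulfate. FGF2 is a classic angiogenic factor acting on endothelial cells largely through FGFR1, whereas FGF7, the keratinocyte growth factor, is made by mesenchymal cells and acts on an epithelial splice form of FGFR2. Activated MET and FGF receptors share the adaptors that lead to RAS and the ERK kinases.

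Values are log2 intensities unless stated otherwise, and ± gives the SD between the 4 cultures of a group, or the standard error where marked SE. Values under the 10th percentile of the table were raised to it, a floor of 2.56, where values have no order. The 95th percentile of olfactory receptor rows, 3.44, served as a background level, since these receptors are characteristic of sensory neurons. Differences are IUGR minus control from limma, fitted over all 14577 named genes and adjusted by Benjamini-Hochberg over all of them, with a threshold of 0.05.

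The arrays differed strongly in the marker genes of the labelled cell type. The summed linear intensity of 15 measured endothelial markers, of 21 listed, was 413 to 8056 in IUGR cultures and 6537 to 13168 in control cultures. In IUGR replicates 2 and 4 the sums were 609 and 413. On each of these arrays 6 of the 15 markers lay at or below the background level, KDR, FLT1, EMCN and PLVAP on both. PECAM1 was 3.31 and 3.63 in IUGR replicates 2 and 4, against 9.62 to 11.55 in control cultures. CDH5 was 2.85 and 3.49 there, against 9.22 to 10.97 in control cultures. The sum of IUGR replicate 1, 3472, was also below every control. Of the 15 markers, 14 had a lower and 1 a higher group mean in IUGR. Summed intensity of 17 fibroblast markers, of 18 listed, was 15669 to 33618 in IUGR cultures. It was 6738, 6524, 6432 and 24714 in control replicates 1 to 4, so only control replicate 4 reached the IUGR range. LUM, FAP, POSTN and DPT lay at or below the background level in each of control replicates 1 to 3. None of the 17 did so in any IUGR culture or in control replicate 4. Of 14 mesothelial and epithelial markers 11 were measured. They summed to 9156 and 14061 in IUGR replicates 2 and 4, against 157 to 214 on the other 6 arrays. Medians of the arrays were alike, at 37.7 to 41.1 intensity units. In such cultures, fewer cells of a type and less RNA per cell cannot be told apart.

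HGF, FGF7 and FGF5, all secreted ligands, had higher values in every IUGR culture than in any control culture. FGF7 showed the largest difference of the 10 genes, HGF was at the floor in all 4 control cultures, and FGF5 lay below the background level in all 4. MET and FGFR2 had higher group means in IUGR, carried mostly by IUGR replicates 2 and 4, and the groups overlapped. FGF1, FGF2, FGFR1 and FGFR4 differed by less than the SD of either group, and the groups overlapped for FGFR3. None of the 10 genes passed the threshold over all genes in limma, against 0.0686% of all genes (10 of 14577). At an unadjusted p under 0.05 there were 3 of the 10, all higher, against 8.2% of all genes higher and 7.68% lower. The groups did not overlap for the same 3, all higher, against 4.53% of all genes higher and 4.12% lower. The median difference over the 10 genes was 1.23, beside a median of 0 over all genes. Since the 10 genes were chosen with earlier results of these data known, these counts and shares are descriptions only.

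**Figure D1:**
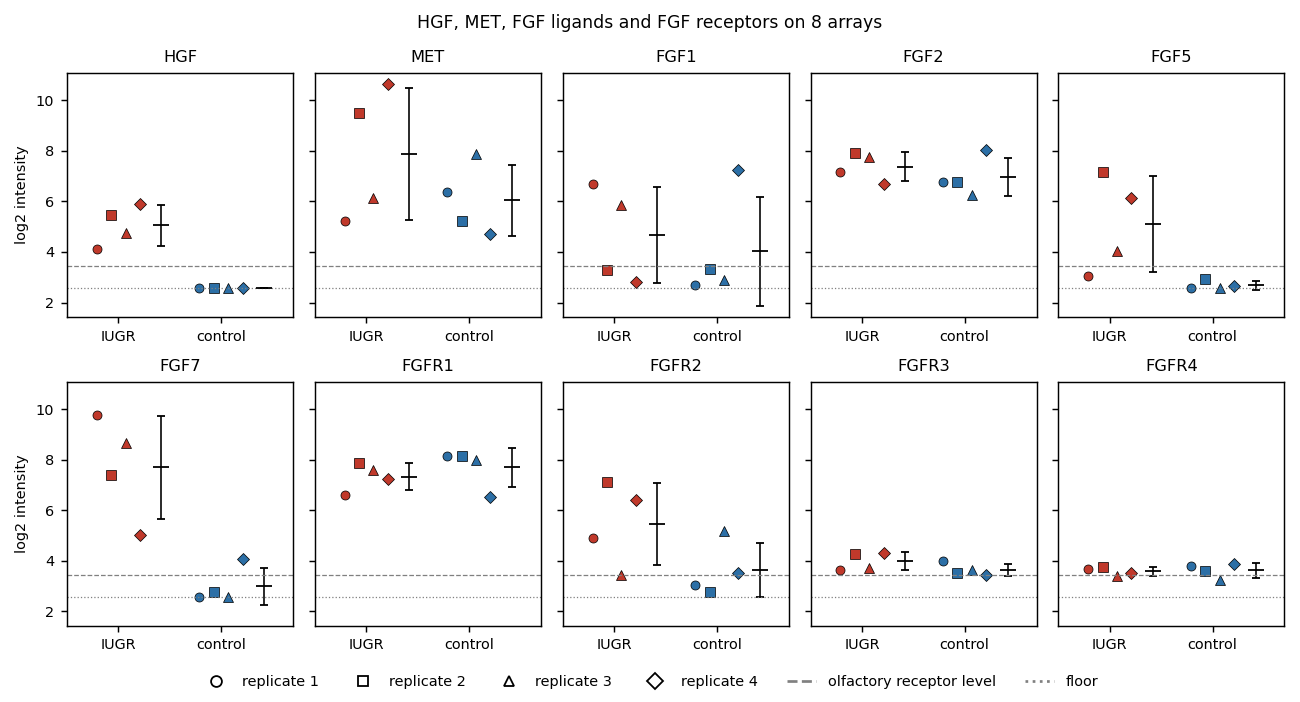
Log2 intensity of the 10 genes (vertical axis) in IUGR cultures (left, red) and control cultures (right, blue), 1 symbol per replicate, with mean and SD as black bars. HGF, FGF5 and FGF7 show no overlap between the groups, at 4.10 to 5.91, 3.03 to 7.18 and 5.01 to 9.76 in IUGR against 2.56, 2.56 to 2.93 and 2.56 to 4.06 in control.

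HGF, the ligand of MET, was 4.10, 5.48, 4.74 and 5.91 in IUGR replicates 1 to 4, against the floor of 2.56 in all 4 control cultures. Every IUGR culture lay above the background level and every control culture below it. The linear intensities were 17.2 to 60.3 in IUGR cultures and 4.41 to 5.74 in control cultures. The IUGR mean of 5.06 ± 0.80, set against the background level in place of the control values, makes HGF at least 3.07-fold higher in IUGR. In limma the difference of 2.50 ± 0.38 (SE) had an adjusted p of 0.0897. The floor set the control SD to 0, and this SD entered that SE and p. The exact two-sided permutation p was 0.0286, the smallest that 4 against 4 arrays allow. The highest HGF values came from IUGR replicates 2 and 4, whose mesothelial and epithelial marker sums were high. Without both arrays the difference was 1.86. In control replicate 4, with a fibroblast sum of 24714, HGF stayed at the floor. The part of other cell types in the HGF difference was not tested beyond these values.

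FGF7, a mesenchymal ligand, was 9.76, 7.39, 8.66 and 5.01 in IUGR replicates 1 to 4, against 2.56, 2.76, 2.56 and 4.06 in control replicates 1 to 4. The lowest IUGR culture, replicate 4, lay above the highest control culture, also replicate 4, which was the one control above the background level. Group means were 7.71 ± 2.04 in IUGR and 2.99 ± 0.73 in control, a difference of 4.72 ± 1.01 (SE, limma adjusted p = 0.116; exact permutation p = 0.0286). With 3 of 4 control values at or below the background level, 2 of them at the floor, no fold is given. Fibroblast markers summed to 33618, 27317, 21331 and 15669 in IUGR replicates 1 to 4, so replicate 1 was highest and replicate 4 lowest for both. Between them the order differed, with the higher sum in replicate 2 and the higher FGF7 in replicate 3. Control replicate 4 had the highest FGF7 and the highest fibroblast sum among controls. Its sum of 24714 was above those of IUGR replicates 3 and 4, while its FGF7 was below both. The part of fibroblast-like cells was not tested. Without control replicate 4 the difference was 5.08, and without IUGR replicates 2 and 4 it was 6.22. With passage in the model it was 4.91, where it no longer had an unadjusted p under 0.05 (limma adjusted p = 0.713). Passage did not overlap between the groups, so fits with passage, here and for the genes below, extrapolate and cannot separate passage from group.

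FGF5, a ligand known for ending the growth phase of hair follicles, was 3.03, 7.18, 4.04 and 6.13 in IUGR replicates 1 to 4. In control replicates 1 to 4 it was 2.56, 2.93, 2.56 and 2.66. IUGR replicate 1 lay below the background level, so the lack of overlap rests there on values at background. The difference was 2.42 ± 0.89 (SE, limma adjusted p = 0.259, exact permutation p = 0.0286). With all 4 control values and that of IUGR replicate 1 below the background level, no fold is given. The high values were those of IUGR replicates 2 and 4, and without these arrays the difference was 0.86. With an endothelial marker score in the model it was 0.36 (limma adjusted p = 0.974), and with passage in the model it was 6.09 (limma adjusted p = 0.585). The score, a mean of the centred endothelial markers, was -0.33, -2.99, 0.98 and -3.18 in IUGR replicates 1 to 4. In control cultures it was 0.73 to 1.77. Only IUGR replicate 3 lay within the control range, so fits with the score, here and below, separate score and group poorly.

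The other FGF ligands among the 10 genes gave no difference beyond the spread between cultures. FGF1, which can bind every FGF receptor, was 6.67, 3.29, 5.87 and 2.80 in IUGR replicates 1 to 4, against 2.68, 3.31, 2.88 and 7.24 in control replicates 1 to 4. It was above the background level on 3 arrays, IUGR replicates 1 and 3 and control replicate 4, and below it on the other 5. The difference of 0.63 had a 95% interval from -2.54 to 3.80 (limma adjusted p = 0.883). The order with these 3 arrays above the other 5 was noticed after the values were seen and is a description only. Of all genes tested, 3.85% had this order. Among the smooth muscle markers 4 of 13 did, ACTA2, MYH11, LMOD1 and ACTG2, and among the fibroblast markers 6 of 17. Smooth muscle markers summed to 2513 to 13818 in IUGR cultures and 1628 to 22398 in control cultures, with control replicate 4 highest, and their part was not tested.

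FGF2 was 7.16, 7.93, 7.74 and 6.68 in IUGR replicates 1 to 4, against 6.76, 6.76, 6.27 and 8.05 in control replicates 1 to 4. It was well above the background level on every array. The highest culture was a control and the groups overlapped widely, with means of 7.38 ± 0.57 in IUGR and 6.96 ± 0.76 in control. The difference was 0.42, with a 95% interval from -0.63 to 1.47 (limma adjusted p = 0.709). Without control replicate 4 it was 0.78.

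MET, the HGF receptor, was 5.22, 9.52, 6.12 and 10.64 in IUGR replicates 1 to 4, against 6.37, 5.21, 7.89 and 4.72 in control replicates 1 to 4. All 8 arrays were above the background level. IUGR replicates 2 and 4 stood above every other array, while IUGR replicates 1 and 3 lay within the control range. The difference was 1.83, with a 95% interval from -1.45 to 5.10 (limma adjusted p = 0.576; exact permutation p = 0.257). Without IUGR replicates 2 and 4 it turned to -0.38, and with an endothelial marker score in the model to -1.02, while with passage in the model it was 4.03. Among controls, replicate 3 was highest at 7.89, and its mesothelial and epithelial markers summed to 207. The part of these cell types in the MET values was not tested.

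FGFR2, the receptor of FGF7, was 4.90, 7.10, 3.46 and 6.42 in IUGR replicates 1 to 4, against 3.05, 2.76, 5.19 and 3.53 in control replicates 1 to 4. The highest values were again in IUGR replicates 2 and 4, and the highest control was again replicate 3. IUGR replicate 3 and control replicate 4 lay near the background level, and control replicates 1 and 2 below it. Group means were 5.47 ± 1.63 in IUGR and 3.63 ± 1.09 in control, a difference of 1.84 with a 95% interval from -0.32 to 3.99 (limma adjusted p = 0.385). Without IUGR replicates 2 and 4 it was 0.55, with an endothelial marker score in the model -0.18, and with passage in the model 5.53. The table holds 1 row per gene, so the epithelial and mesenchymal splice forms of FGFR2 were not separated.

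FGFR1, the main FGF receptor of endothelial cells, was 6.62, 7.85, 7.59 and 7.23 in IUGR replicates 1 to 4, against 8.13, 8.14, 7.97 and 6.53 in control replicates 1 to 4. Control replicates 1 to 3 were above every IUGR culture, and control replicate 4 was below all of them. The difference was -0.37, with a 95% interval from -1.41 to 0.68 (limma adjusted p = 0.745). Without control replicate 4 it was -0.76 (limma adjusted p = 0.256).

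FGFR3 and FGFR4 lay close to the background level on all 8 arrays. FGFR3 was 3.63 to 4.32 in IUGR cultures and 3.44 to 3.99 in control cultures, a difference of 0.34 with a 95% interval from -0.15 to 0.84. FGFR4 was 3.38 to 3.74 in IUGR cultures and 3.23 to 3.86 in control cultures. Its difference was -0.04, with a 95% interval from -0.41 to 0.33.

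**Figure D2:**
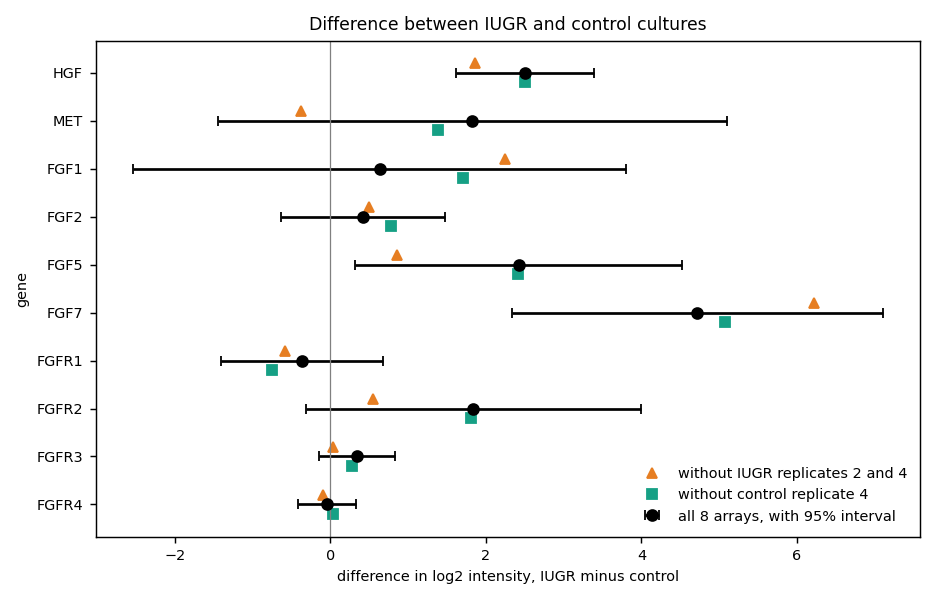
Difference in log2 intensity, IUGR minus control (horizontal axis), for each gene with its 95% interval from limma (black), without IUGR replicates 2 and 4 (orange) and without control replicate 4 (green). The intervals of HGF, FGF5 and FGF7 lie above 0, and MET is 1.83 with all arrays and -0.38 without IUGR replicates 2 and 4.

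The 10 genes followed different orders across the cultures. For 5 of them, HGF, MET, FGF5, FGFR2 and FGFR3, IUGR replicates 2 and 4 were the highest arrays, an order found in 8.78% of all genes tested and in 8 of 11 mesothelial and epithelial markers. This order and the next were noticed after the values were seen and are descriptions, and FGFR3 is near background throughout. FGF7 alone of the 10 had all IUGR cultures and control replicate 4 above control replicates 1 to 3, an order shared by 6.13% of all genes and by 11 of 17 fibroblast markers. With IUGR replicates 2 and 4 and control replicate 4 left out, 2 IUGR cultures stood against 3 controls. FGF7, FGF1 and HGF then passed the threshold, with differences of 6.58, 3.32 and 1.86 (limma adjusted p = 0.0231, 0.0427 and 0.0487), where 2.23% of all genes passed. In that setting 5 of the 10 had an unadjusted p under 0.05 and 6 did not overlap, against 19.1% and 34.1% of all genes. The choice of arrays shapes these values: for FGF1 it keeps the 2 high IUGR cultures and removes the 1 high control, and for FGF7 it removes the highest control. With all 8 arrays FGF1 differed by 0.63 (limma adjusted p = 0.883). The same setting gave MET a difference of -0.82 (limma adjusted p = 0.715).

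**Figure D3:**
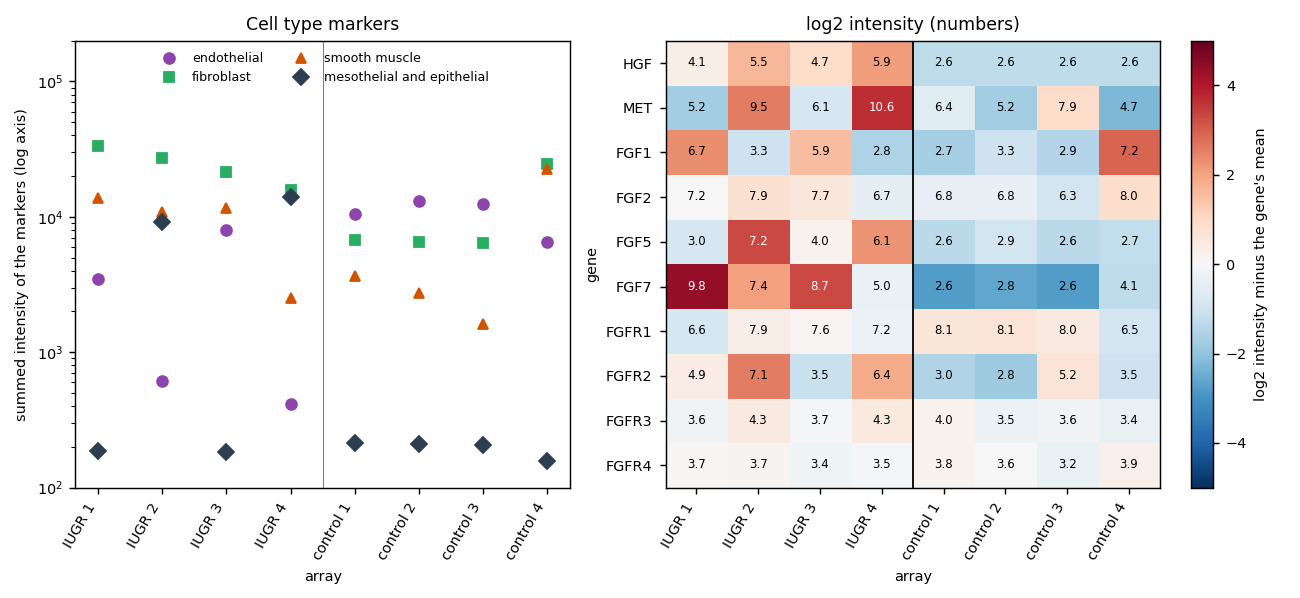
Left, summed intensity of cell type markers (logarithmic vertical axis) on each array, IUGR first; right, log2 intensity of the 10 genes (printed) coloured by the difference from each gene's mean. IUGR replicates 2 and 4, with mesothelial and epithelial sums of 9156 and 14061, hold the highest values of HGF, MET, FGF5 and FGFR2, while FGF1 is highest in IUGR replicates 1 and 3 and control replicate 4.

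Genes with the most similar profiles were sought for the 6 genes whose values spanned over 2 log2 units. Likeness was the root-mean-square difference between log2 profiles, each centred on its own mean over the 8 arrays. Compared were the 11827 other genes whose higher group mean lay above the background level. For HGF the nearest were TMEM116, a membrane protein gene, and DSG2, the desmosomal cadherin desmoglein, at 0.24 and 0.38. DSG2 was 4.26, 5.48, 4.90 and 6.76 in IUGR replicates 1 to 4 and 2.56 to 3.63 in control cultures. For FGF7 they were the matrix proteoglycan gene FMOD and the serine protease gene HTRA3, at 0.75 and 0.83. For MET they were COL14A1, a fibril-associated collagen, at 0.84, and ID1, an inhibitor of basic helix-loop-helix factors, at 0.88. FGF1 was nearest to ANGPTL1, an angiopoietin-like protein, at 0.29 and to IL1RL1, the receptor of interleukin-33, at 0.36. FGF5 was nearest to CHN2 and FRRS1L, at 0.40 and 0.41, and FGFR2 to ANKRD44 and the lysosomal protease gene LGMN, at 0.48 and 0.52. Over all compared genes the median difference was 1.39 from HGF and 2.74 from FGF7. The control means of TMEM116, DSG2, HTRA3 and FRRS1L, at 2.80, 2.94, 3.09 and 2.64, lay below the background level. IL1RL1 was at the floor in IUGR replicates 2 and 4 and control replicates 1 to 3. Part of these likenesses therefore rests on values at background, which have no clear order.

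Other genes of the pathway were taken from 9 lists with 135 genes, of which 112 were measured. The lists too were chosen with earlier results of these data known, so their counts and shares are descriptions only. None passed the threshold over all genes in limma. At an unadjusted p under 0.05 there were 26, of which 16 were higher and 10 lower in IUGR, or 23.2% against 15.9% of all genes. The groups did not overlap for 14, of which 8 were higher and 6 lower, or 12.5% against 8.65% of all genes. Their median difference was 0.11, beside 0 over all genes.

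Among the other FGF ligands 17 of 18 were measured, and 11 had a group mean above the background level. At an unadjusted p under 0.05 there were 1 higher and 1 lower, beside 8.2% and 7.68% of all genes. The groups overlapped for all 17, where 8.65% of all genes did not overlap. FGF4, an embryonic ligand, averaged 3.81 ± 0.16 in IUGR and 3.59 ± 0.09 in control, near background in both. FGF23, a phosphate-regulating hormone, differed by -0.28 ± 0.13 (SE) and FGF8, a patterning ligand of the embryo, by -0.24 ± 0.14 (SE). FGF10, a close relative of FGF7 in lung development and named here after its values were seen, was 2.85 to 4.95 in IUGR and 2.56 to 5.03 in control.

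Among the decoy, co-receptor and carrier genes of FGF, 6 of 10 were measured. At an unadjusted p under 0.05, 1 was higher and 1 lower, beside 8.2% and 7.68% of all genes. FLRT3, a membrane protein that binds FGF receptors in frog embryos, was 8.06, 9.52, 7.35 and 9.41 in IUGR replicates 1 to 4, against 4.38, 4.56, 3.03 and 4.78 in control replicates 1 to 4. The groups did not overlap, with a difference of 4.40 ± 0.61 (SE, limma adjusted p = 0.0838). Without control replicate 4, the control nearest to IUGR, its limma adjusted p was 0.0345, where 2.53% of all genes passed. Its relatives FLRT2 and FLRT1 differed by -0.61 ± 0.54 (SE) and -0.19 ± 0.24 (SE).

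Of 9 measured MET partners, 1 was higher and 1 lower at an unadjusted p under 0.05, beside 8.2% and 7.68% of all genes. CD44, a hyaluronan receptor that can act as a co-receptor of MET, was 8.03, 9.51, 8.08 and 8.42 in IUGR replicates 1 to 4, against 3.31, 3.05, 3.13 and 5.87 in control replicates 1 to 4. Controls 1 to 3 lay below the background level and every IUGR culture was above every control (difference 4.67 ± 0.71, SE; limma adjusted p = 0.0897). Without control replicate 4, the control nearest to IUGR, the difference was 5.35 (limma adjusted p = 0.0052), in a setting where 2.53% of all genes passed. NRP1, a co-receptor of growth factors that include VEGF and HGF, went the other way, at 6.67, 4.50, 8.13 and 4.69 in IUGR against 10.66, 10.82, 11.06 and 8.97 in control (limma adjusted p = 0.116). PTPN2, a tyrosine phosphatase, differed by 0.53 ± 0.29 (SE).

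CDH11, a mesenchymal cadherin, was 10.06 to 11.06 in IUGR cultures and 2.85, 4.16, 3.23 and 10.03 in control replicates 1 to 4. The groups did not overlap, but control replicate 4 lay just under the lowest IUGR culture. Its difference was 5.58 ± 1.58 (SE, limma adjusted p = 0.174), and 7.23 without control replicate 4 (limma adjusted p = 0.00289). That array was the control nearest to IUGR, so leaving it out favours a smaller p, and 2.53% of all genes passed in that setting. Of 5 measured adhesion partners of FGF receptors, 2 were higher and 1 lower at an unadjusted p under 0.05, beside 8.2% and 7.68% of all genes. ITGB3, the integrin subunit beta 3, averaged 7.46 ± 0.35 in IUGR and 6.02 ± 1.24 in control. The neural adhesion gene L1CAM, the lower one, averaged 3.33 ± 0.33 and lay near background in IUGR, against 3.79 ± 0.23 in control.

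Of 19 measured genes of heparan sulfate chains and their carriers, 2 were higher and 3 lower at an unadjusted p under 0.05. The shares of all genes were 8.2% and 7.68%. The groups did not overlap for 2 higher and 2 lower, beside 4.53% and 4.12% of all genes. The cell surface proteoglycan SDC4, syndecan 4, averaged 8.80 ± 1.25 in IUGR and 5.21 ± 1.53 in control (difference 3.59 ± 0.92, SE). SULF1, an enzyme that removes sulfate from heparan chains, averaged 7.15 ± 1.36 in IUGR and 4.09 ± 0.92 in control (limma adjusted p = 0.146). HS2ST1, which adds sulfate to the chains, was 7.35, 8.08, 8.72 and 8.60 in IUGR replicates 1 to 4, against 10.44, 10.29, 10.30 and 9.05 in control replicates 1 to 4. All IUGR cultures lay below all controls, with control replicate 4 nearest (difference -1.83 ± 0.42, SE; limma adjusted p = 0.128). NDST1, another sulfation enzyme of these chains and named after its values were seen, differed by -1.31 ± 0.43 (SE), also without overlap.

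Of 13 measured genes of HGF activation and its relatives, 3 were higher at an unadjusted p under 0.05 and none lower. The shares of all genes were 8.2% and 7.68%. The groups did not overlap for 1, higher in IUGR, beside 4.53% of all genes. PLAUR, the urokinase receptor, averaged 8.38 ± 0.85 in IUGR and 5.89 ± 1.61 in control, with control replicate 4 at 7.77 above IUGR replicate 4 at 7.16. MST1R, the MET-related receptor RON, was below the background level in all controls and in IUGR replicates 2 and 3, so no difference is given. Its ligand gene MST1 differed by -0.69 ± 0.31 (SE). ST14, matriptase, was the gene without overlap, and 3 of its IUGR values and all its control values lay below background; it was named after its values were seen. The HGF-cleaving urokinase PLAU and the protease inhibitor SPINT2, also named after their values were seen, differed by 0.35 and 0.11.

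Adaptors of the activated receptors included 3 genes, of 16 measured, with lower values in every IUGR culture, beside 4.12% of all genes. GAB1, the docking protein of MET and FGF receptors, was 6.89, 6.89, 6.25 and 7.21 in IUGR replicates 1 to 4, against 8.78, 9.38, 9.56 and 8.41 in control replicates 1 to 4. Its difference of -2.22 ± 0.31 (SE) had a limma adjusted p of 0.0838, and -2.43 without control replicate 4 had one of 0.0209. That array was the control nearest to IUGR here too, and 2.53% of all genes passed without it, against 0.0686% with it. PLCG1, a phospholipase activated by these receptors, averaged 5.82 ± 0.25 in IUGR and 6.69 ± 0.42 in control. CBL, the ubiquitin ligase that marks MET for degradation, averaged 6.63 ± 0.44 in IUGR and 7.35 ± 0.17 in control. Of 16 measured adaptors, 3 had an unadjusted p under 0.05 with lower and 1 with higher values in IUGR. The shares of all genes were 7.68% and 8.2%. FRS2, the FGF receptor substrate, and GRB2, a linker to RAS, were named after their values were seen and differed by 0.45 and -0.07, with overlap.

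In the RAS to ERK cascade 1 of 10 measured genes had an unadjusted p under 0.05, beside 15.9% of all genes. ARAF, a RAF kinase, was 8.02, 7.84, 7.47 and 8.03 in IUGR replicates 1 to 4, against 7.13, 7.16, 6.93 and 7.04 in control replicates 1 to 4. The groups did not overlap, and the difference was 0.78 ± 0.14 (SE, limma adjusted p = 0.095). The RAS inhibitor genes NF1 and RASA1 differed by 0.76 ± 0.34 (SE) and 0.17 ± 0.10 (SE).

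Of 17 measured ERK-induced genes and feedback inhibitors, 4 were higher at an unadjusted p under 0.05 and none lower, beside 8.2% and 7.68% of all genes. Group means in IUGR were higher for 13 and lower for 4, with a median difference of 0.22 beside 0 over all genes. DUSP5, a nuclear phosphatase of ERK, was 5.32, 5.68, 5.92 and 4.94 in IUGR replicates 1 to 4, against 4.49, 3.98, 4.19 and 4.46 in control replicates 1 to 4. Every IUGR culture was above every control (difference 1.19 ± 0.23, SE; limma adjusted p = 0.103). The immediate early factor EGR1 averaged 9.21 ± 0.80 in IUGR and 7.65 ± 0.57 in control, with IUGR replicate 3 at 8.02 below control replicate 2 at 8.45. IER3, an early response gene, averaged 8.34 ± 0.42 in IUGR and 7.45 ± 0.46 in control. The widely used readouts DUSP6, SPRY4, ETV4 and ETV5, named after their values were seen, differed by 0.16, -0.17, 0.16 and 0.12, each with overlap.

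**Figure D4:**
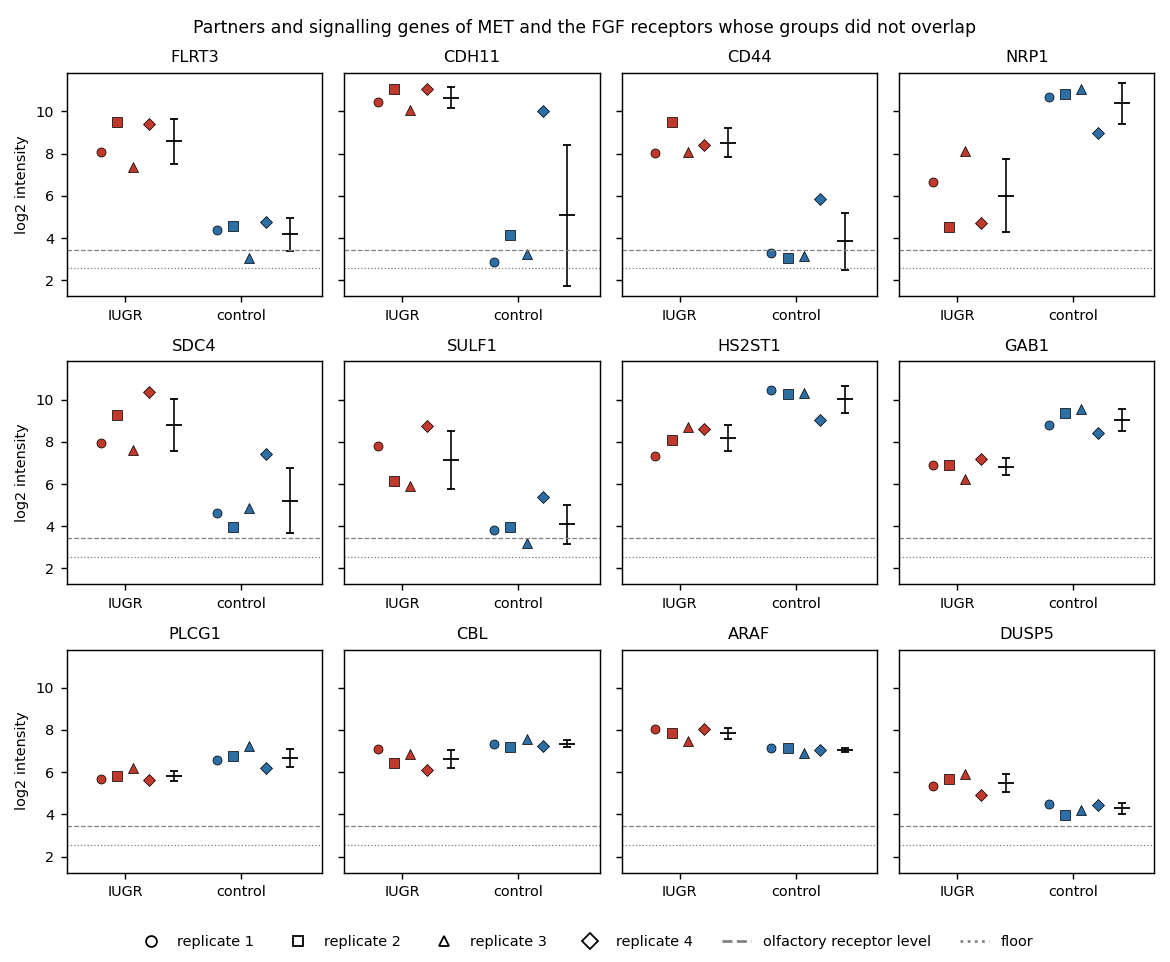
Log2 intensity (vertical axis) of 12 partner and signalling genes without overlap between IUGR (left, red) and control cultures (right, blue), 1 symbol per replicate, with mean and SD as black bars. FLRT3, CDH11, CD44, SDC4, SULF1, ARAF and DUSP5 lie higher in IUGR and NRP1, HS2ST1, GAB1, PLCG1 and CBL lower; control replicate 4 is the control nearest to the IUGR values for all but CBL, ARAF and DUSP5.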

How the data were processed

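The authors deposited 1 table of linear intensity values from 8 1-colour arrays, 1 per culture, hybridised with biotinylated cRNA per the labels' protocols. Background correction, probe summarisation, normalization and genome build are not given in the sources used here. Coordinates were therefore left out. Linear scale was read from the values (2.77 to 8705). No detection calls came with the values. Precision is limited by having 4 arrays a group.

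Rows were named through the RefSeq table of assembly ARS-UI_Ramb_v3.0. Of 15380 rows, 798 had no symbol and 5 were merged, keeping the row with the highest mean. Values were raised to the 10th percentile (5.89), log2 was taken, and limma 3.58.1 in R 4.3.3 (lmFit, eBayes, two-sided, no covariate) compared 4 IUGR with 4 control arrays over 14577 genes, with Benjamini-Hochberg adjustment. The script was tested on simulated data. An exact permutation test over 70 assignments was run for each of the 10 genes. Groups that do not overlap always give its smallest p, 0.0286, so it adds nothing to the lack of overlap. Background was the 95th percentile of 127 olfactory receptor rows.

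The 10 genes and all lists were chosen with earlier results of these data known. Named were the 10 genes; in each pathway list any called gene and up to 3 with the smallest p and a group mean above background; and the 2 nearest profiles of genes spanning over 2 log2 units. Alternatives covered scaling, floor, filters, priors, weights, covariates, a block, row level and left-out arrays. No sequences are shown.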

Additional observations from a re-analysis of the deposited data

Results flagged for a closer look

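In 7 of 73 sets of 4 cultures tested, 1 culture stood apart from the other 3 by Dixon's test (gap to the nearest culture over the group's range, at the 95% level), and chance alone gives about 1 in 20 such sets. In 6 of the 7 the culture was control replicate 4. It was higher than the other controls for FGF1, at 7.24 against 2.68 to 3.31, for FGF7, at 4.06 against 2.56 to 2.76, for CD44, at 5.87 against 3.05 to 3.31, and for NF1, at 8.70 against 7.22 to 7.47. It was lower than the other controls for FGFR1, at 6.53 against 7.97 to 8.14, and for HS2ST1, at 9.05 against 10.29 to 10.44. The remaining set was EGR1 in IUGR, where replicate 3 was lower at 8.02, against 9.52 to 9.72 in the other IUGR cultures.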

How the results depend on the processing

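No paired analysis was possible because replicate numbers follow accession order and pair no cultures. Of the 10 genes, 0 passed over all genes, and 1 passed, HGF, with log2(value + 1), with array weights and among genes above the olfactory receptor level (limma adjusted p = 0.0437, 0.0497 and 0.0325); with IUGR replicates 2 and 4 and control replicate 4 left out, 3 did. Over all settings the limma adjusted p of HGF was 0.0325 to 0.585, the highest with passage as a covariate. Because passage did not overlap between the groups, fits with it extrapolate and cannot separate passage from group. The endothelial score overlapped between the groups only through IUGR replicate 3, so fits with the score separate score and group poorly. Leaving out 1 array at a time left 0 past the threshold, 2 to 4 with an unadjusted p under 0.05 and 3 to 4 without overlap. With passage as a covariate 2 of the 10, HGF and FGF5, had an unadjusted p under 0.05, and with the endothelial score 2, HGF and FGF7. Without those 3 arrays 5 had an unadjusted p under 0.05 and 6 did not overlap, where 19.1% and 34.1% of all genes did. Among genes above the median gene 0 and 0 did, because only 3 of the 10 genes remained there. Pathway genes past the threshold numbered 3 with log2(value + 1), 3 above the median gene, 3 above the olfactory receptor level, 3 with array weights, 7 without those 3 arrays and 0 to 9 with 1 array left out, 9 being without control replicate 4. Pathway genes with an unadjusted p under 0.05, 26 in the main setting, were 9 with passage, 12 with the endothelial score, 14 without IUGR replicates 2 and 4, and 14 to 31 with 1 array left out, 14 being without control replicate 2. Signs turned with passage as a covariate for FGF23 (0.22) and FLRT1 (0.97). They turned with the endothelial score for MET (-1.02), FGFR2 (-0.18), FGFR3 (-0.075), FGF8 (0.028) and PTPN2 (-0.10). They also turned for MET without IUGR replicates 2 and 4 (-0.38) and without these and control replicate 4 (-0.82), the last also for FGFR3 (-0.036). With 1 array left out, they turned for FGF1 without IUGR replicate 1 (-0.039) and for FGFR4 without IUGR replicate 3, control replicate 1 or control replicate 4 (0.024, 0.015 and 0.039). Leaving out arrays gave -0.82 to 2.71 for MET, -0.039 to 3.32 for FGF1, -0.036 to 0.46 for FGFR3 and -0.17 to 0.039 for FGFR4. The cause of these changes was not tested. With log2(value + 32) the differences of HGF and FGF7 were 0.85 and 2.73, since the added value compresses dim genes. The title number as a random block changed no call. Signal near background limits FGF5, FGFR3 and FGFR4. It also limits HGF, with all 4 controls at the floor, and FGF1, FGF7 and FGFR2, each with some arrays at or below background.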

Other observations

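SPRY3, a Sprouty inhibitor of receptor tyrosine kinases, and DUSP4, an ERK phosphatase, were high in the cultures where MET was highest; they were named after their values were seen. In IUGR replicates 2 and 4 SPRY3 reached 7.26 and 8.84, with no other array above 4.27. DUSP4 reached 6.33 and 6.54 on the same arrays, with no other above 3.91. Of 17 ERK-induced genes and feedback inhibitors 3 had these arrays above the other 6, SPRY3, DUSP4 and EGR1, against 8.78% of all genes. So did 8 of 11 mesothelial and epithelial markers. A link of these genes to MET was not tested. The heparan sulfate proteoglycan SDC2 followed another order, with 9.67 and 8.07 in IUGR replicates 1 and 3 and 8.63 in control replicate 4, the other arrays lying no higher than 6.08. Of 19 heparan sulfate genes, 6 had these 3 arrays above the other 5, as FGF1 did, against 3.85% of all genes. This order and SDC2 were picked out after the values were seen.

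The leading number in the titles, whose meaning the labels do not give, was 9 for IUGR replicates 2 and 3 and for control replicate 1. Within these 3 cultures the IUGR mean minus the 1 control value was 5.47 for FGF7, 3.05 for FGF5 and 2.55 for HGF. That control was at the floor for these 3 genes. The difference was 2.23 for FGFR2, 1.90 for FGF1, 1.45 for MET and 1.08 for FGF2. For FGFR3, FGFR4 and FGFR1 it was 0.02, -0.23 and -0.40. With 1 control culture, the spread between controls is not known here.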
